A study of Mus musculus with 15 samples.

Results

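Late and early chromatin RNA of stimulated mouse macrophages were compared, with the libraries of 60 and 120 min on the late side and those of 15 and 30 min on the early side. The members were these 4 chromatin libraries, with the chromatin library of 0 min as a reference only, so 5 of the 15 libraries of the series. The cells were bone marrow-derived macrophages of C57BL/6 mice of both sexes, whose age the labels do not give, grown in M-CSF, the growth factor of the macrophage lineage. Stimulation was with lipid A at 100 ng/ml, the membrane anchor of lipopolysaccharide, which Toll-like receptor 4 senses, and the cells of 0 min were not stimulated. Chromatin RNA is the RNA left in the chromatin pellet after the soluble parts of cell and nucleus are removed, and nucleoplasmic and cytoplasmic RNA are those soluble parts. All cells shared the M-CSF culture and the fractionation, and the labels do not say whether the times were separate cultures. Each fraction and time had 1 library. The 2 times of a side therefore stood in for replicates without being replicates, and every p-value sets the difference between sides against the spread between neighbouring times.

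Chromatin-bound RNA is rich in transcripts that are still being made or spliced, so its level follows transcription more closely than the level of cytoplasmic mRNA does. Toll-like receptor 4 first sets off MAP kinases and NF-kappaB, which switch on primary response genes such as the immediate early transcription factors. Proteins made from these genes, and interferon beta released by the cells and acting through Jak and Stat proteins, then switch on secondary genes, many of them antiviral. The comparison asks which transcripts were higher early and which late. The labels give no block of protein synthesis or of interferon signalling, so primary and secondary genes cannot be told apart by it.

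The chromatin libraries held 38.8 to 52.3 M reads, 20.5% to 27% of them in exons of the listed genes. A value is RPKM, the reads of a transcript's exons relative to exon length and library size. The macrophage markers Emr1, Csf1r, Cd68, Itgam, Fcgr1, Mertk and Lyz2 were listed, 7 of 8 searched, with a summed level of 1071 to 1704 RPKM over the 5 chromatin libraries. Of the markers of other cells, 6 of 8 for neutrophils summed to 3.27 to 7.19 RPKM, and 1 of 4 for B cells, dendritic cells and stromal cells each stayed at or under 1.51 RPKM. The 3 listed T cell markers summed to 7.1 to 25.9 RPKM, nearly all of it Cd28, while Cd4 and Lck stayed at or under 1.54 RPKM. No erythroid marker was listed. In such bulk RNA, fewer cells of a type and less RNA per cell cannot be told apart. The median gene differed from its 0 min value by -0.138, -0.478, -0.572 and -0.411 on the log2 scale at 15, 30, 60 and 120 min, over 8881 genes. Values with that shift removed are called rescaled.

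Genes at 1 RPKM or more in at least 1 of the 4 libraries numbered 8463. Taco1 and Apex1 stood just inside that limit, with a highest value of 1.0005 and 1.0012 RPKM, and Zfp865 and Gpr157 just outside, with 0.9994 and 0.9992 RPKM. A gene counted as late higher when both late values lay above both early values, and as late lower when both lay below. Late higher genes numbered 1611 (19% of the genes tested) and late lower genes 2599 (30.7%). Rescaled values turned that balance, with 2342 late higher (27.7%) and 2124 late lower (25.1%). The median late minus early difference over all genes was -0.10 on the log2(RPKM + 0.5) scale.

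The gap was the distance between the nearest values of the sides, on the log2(RPKM + 0.5) scale, which understates the gap of weakly expressed genes. It reached 2-fold for 154 late higher genes (1.82%) and 177 late lower genes (2.09%). Rescaled, these counts were 225 (2.66%) and 151 (1.78%), and 153 of the 154 and 134 of the 177 were among them. The limma test with Benjamini-Hochberg adjustment over all 8463 genes called 7 genes late higher (0.0827%) and 1 late lower (0.0118%), and 1320 genes had an unadjusted p under 0.05. None of these 8 calls held in the rescaled values, without the 15 min library, without the 30 min library, with the spread pooled over all 12 stimulated libraries, without a limit on low values or with a limit of 5 RPKM. Their lowest limma adjusted p was then 0.161, 0.92, 0.408, 0.126, 0.121 and 0.0698 in that order. Without the 60 min or the 120 min library, 927 and 148 genes were called, from a spread of the early pair alone with the lone late library assumed to vary like it. All 8 kept their direction in each of these fits, but only the rescaled fit could have changed it. The other fits kept the same difference or left out a library from sides that did not overlap. An exact permutation test of 2 against 2 libraries cannot go below p = 0.33, so single genes outside the fit have values and no test.

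**Figure D1:**
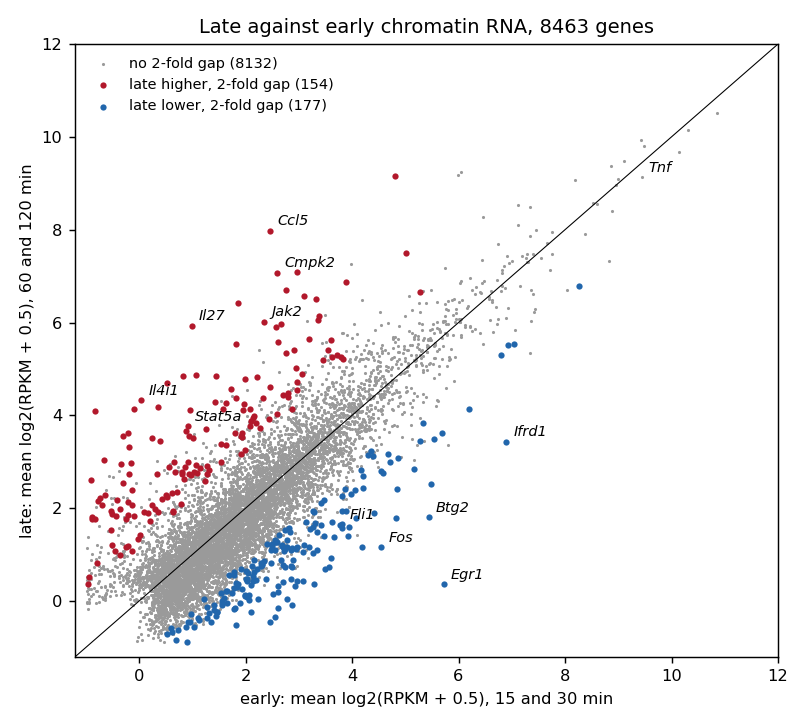
Each point is 1 of 8463 genes, with the mean log2(RPKM + 0.5) of the early chromatin libraries on the x axis and of the late ones on the y axis; the line marks equal values. The 154 genes with a 2-fold gap upwards (red) and the 177 with a 2-fold gap downwards (blue) lie on either side, and Tnf lies close to the line.

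The genes that rose from early to late by the limma test were led by a cytokine, an enzyme and parts of the Jak and Stat pathway. Il27, the subunit p28 of interleukin 27, stood at 0.623 and 2.99 RPKM at 15 and 30 min and at 38.5 and 95.5 RPKM at 60 and 120 min. Its late minus early difference was 4.95 on the log2 scale (SE 0.63, limma adjusted p = 0.0446). Its nearest late and early libraries differed 12.9-fold (95% counting interval 10.4 to 16.1). Il4i1, a secreted amino acid oxidase that breaks down phenylalanine and tryptophan, had 0.233 and 0.95 RPKM early and 15.7 and 24.4 RPKM late. The difference of Il4i1 was 4.28 (SE 0.44, limma adjusted p = 0.0343), with a gap of 16.5-fold in RPKM (13.2 to 20.9). The readthrough transcript Nup62-il4i1, which shares exons and so reads with Il4i1, was called beside it at 3.82 (limma adjusted p = 0.0343) and is no separate observation. In Il27 and Il4i1 both late libraries lay far above both early ones, and the 30 min library already lay above those of 0 and 15 min.

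Jak2, the kinase that relays signals of interferon gamma and of many cytokines, had 3.84 RPKM at 0 min, 3.99 and 5.33 RPKM at 15 and 30 min, and 52.5 and 78.9 RPKM at 60 and 120 min. It rose by 3.66 on the log2 scale (SE 0.42, limma adjusted p = 0.0418), with a gap of 9.83-fold (9.25 to 10.5). Stat5a, a transcription factor that Jak2 phosphorylates, had 1.26 and 1.51 RPKM early and 12.2 and 14.2 RPKM late. Its rise was 2.86 (SE 0.35, limma adjusted p = 0.0446). Cish, an inhibitor of cytokine signalling that Stat5 proteins are known to switch on, had 0.186 and 0.461 RPKM early and 4.92 and 5.74 RPKM late. It rose by 2.84 (SE 0.36, limma adjusted p = 0.0446). Hivep2, a zinc finger protein that binds NF-kappaB-like sites, had 1.25 and 1.42 RPKM early and 10.6 and 13.9 RPKM late, a rise of 2.78 (SE 0.35, limma adjusted p = 0.0446). In the exon values of Jak2, Stat5a, Cish and Hivep2 the widest step between successive times from 15 min on lay between 30 and 60 min, and the early values of Cish, unlike those of the others, were themselves well apart.

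Among the 12 largest gaps upwards of genes at 5 RPKM or more in both late libraries, 6 did not pass the test. Cmpk2, a mitochondrial nucleotide kinase induced by interferon, had 4.16 and 7.35 RPKM early, 42.3 RPKM at 60 min and 421 RPKM at 120 min (4.47, limma adjusted p = 0.14). Il12b, the shared subunit of interleukins 12 and 23, had 0.362 and 14.7 RPKM early and 80.1 and 89.7 RPKM late (4.56, limma adjusted p = 0.141). Ccl5, a chemokine for T cells and monocytes, had 0.612 and 27.1 RPKM early and 129.9 and 487 RPKM late (5.51, limma adjusted p = 0.141). In Il12b and Ccl5 the 30 min library already lay above that of 15 min, and in Cmpk2 and Ccl5 the 120 min library lay far above that of 60 min. Peli1, a ubiquitin ligase of the Toll-like receptor pathway, had 6.73 and 14.1 RPKM early and 64 and 68.1 RPKM late. Rapgef2, an activator of Rap proteins, had 2.78 and 6.12 RPKM early and 28.1 and 28 RPKM late, and Fam102b had 1.6 and 1.44 RPKM early and 8.94 and 13.3 RPKM late. These late values differed little between 60 and 120 min in Peli1 and Rapgef2.

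Egr1, an immediate early zinc finger transcription factor, was the gene that fell from early to late by the test. It had 1.14 RPKM at 0 min, 88.2 and 30.8 RPKM at 15 and 30 min, and 1.38 and 0.386 RPKM at 60 and 120 min. The difference was -5.35 on the log2 scale (SE 0.58, limma adjusted p = 0.0343). Its nearest early and late libraries differed 22.3-fold (19.2 to 26.1), and at 120 min it lay below the unstimulated library.

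The other large gaps downwards included further genes of the first wave. Btg2, an antiproliferative regulator of mRNA decay, had 65.2 and 28.1 RPKM early and 4.1 and 2.18 RPKM late (-3.63, limma adjusted p = 0.067). Fos, a subunit of the AP-1 transcription factor, had 39.3 and 13.2 RPKM early and 1.6 and 1.9 RPKM late (-3.38, limma adjusted p = 0.0852). Both Btg2 and Fos were highest at 15 min, well above 0 min, and below 0 min at both late times. Ifrd1, a regulator of transcription, had 79.3 and 176 RPKM early and 16 and 6.52 RPKM late, and Ppp1r15a, which directs a phosphatase to the translation factor eIF2, had 73.2 and 72.8 RPKM early and 23.2 and 12.7 RPKM late. Ifrd1 and Ppp1r15a were still above 0 min (6.32 and 3.2 RPKM) at 120 min. Thap6 had 5.14 and 6.17 RPKM early and 0.617 and 0.225 RPKM late, and Fabp4, a fatty acid carrier of macrophages and fat cells, had 16 and 13.8 RPKM early and 1.94 and 3.22 RPKM late.

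A separate kind of late lower gene was not 2-fold above the unstimulated library at both early times. Fli1, an Ets transcription factor of blood cells, had 15.3 RPKM at 0 min, 12.9 and 14.3 RPKM early, and 3.22 and 2.15 RPKM late. Rasgrp3, an activator of Ras and Rap proteins, had 9.73 RPKM at 0 min, 8.78 and 5.75 RPKM early and 1.28 and 0.392 RPKM late. Arhgap25, a GTPase activator for Rac in blood cells, had 9.09 RPKM at 0 min, 9.63 and 6.58 RPKM early and 1.39 and 1.8 RPKM late. Snx24, a sorting nexin, had 7.3 RPKM at 0 min, 9.38 and 9.02 RPKM early and 2.19 and 0.123 RPKM late. The phosphate transporter Slc20a1 stood between these kinds, with 11.5 RPKM at 0 min, 36.7 and 20.9 RPKM early and 5.98 and 1.34 RPKM late. In all 5 genes both late libraries lay below the 0 min library. Their limma adjusted p lay between 0.106 and 0.14.

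**Figure D2:**
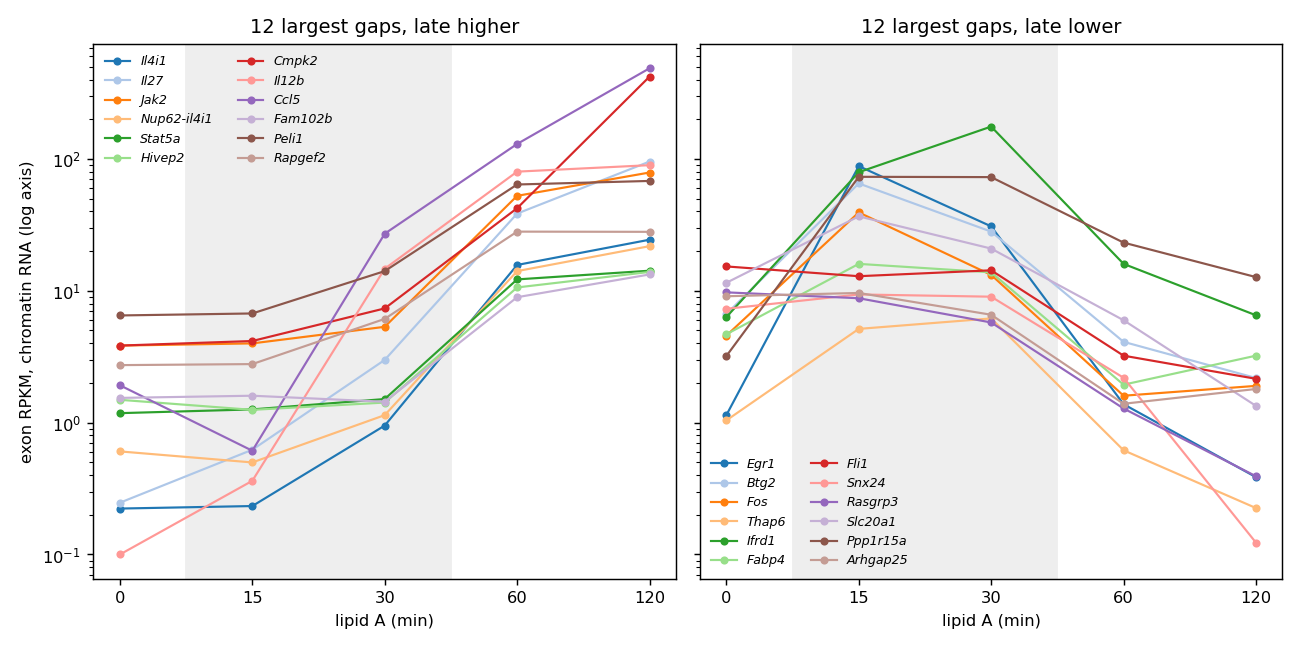
Exon RPKM in chromatin RNA (log axis) at 0, 15, 30, 60 and 120 min of lipid A for the 12 genes with the largest gap in each direction among those at 5 RPKM or more in both libraries of the higher side; the grey band covers the early times and each point is 1 library. On the left, every late value lies above every early value of the same gene, and on the right Egr1, Btg2 and Fos peak at 15 min while Fli1, Rasgrp3 and Arhgap25 start high at 0 min.

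Set against 0 min at 2-fold, 135 of the 154 late higher genes (87.7%) had both late values above the unstimulated library, which is called the late-high course. None had both early values under it by 2-fold without such late values. Of the 154, 126 (81.8%) were highest at 120 min and 28 at 60 min, where the rule leaves only the late times. At 120 min, 63 of them (40.9%) stood 2-fold or more above 60 min, and in 70 the late libraries lay within 1.5-fold of each other. Of the 177 late lower genes, 25 (14.1%) had both early values 2-fold above 0 min, the transient course. Another 132 (74.6%) had both late values 2-fold below 0 min without such early values, the late-low course. The late lower genes were highest at 15 min in 83 cases, at 0 min in 71 and at 30 min in 23. Among the 25 transient genes, 14 were highest at 15 min and 11 at 30 min, with a median of 4.57 RPKM at 0 min, 33.9 and 19.9 RPKM early and 4.1 and 2.18 RPKM late.

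Promoters are shown here for 4 genes, as a view of the DNA before genes of the late-high and the transient course. They are the late higher genes Rsad2 and Ifit1, whose windows hold the interferon response core, GAAA, any 2 bases and GAAA again, that interferon-regulated Stat and Irf factors are known to bind, and the late lower genes Btg2 and Ppp1r15a, whose windows hold TGACGTCA, the element that CREB and ATF factors are known to bind. They are named genes with a 2-fold gap, taken by the size of the gap, whose match lies before the start site. Genes of a single chromosome were left out of this choice, so larger gaps there are not shown. Each sequence is the 250 bases before the start on the gene's own strand, from RefSeq on GRCm38.p6, with the match in capitals. In Rsad2 and Ifit1 the core lies on the other strand, so it reads TTTC, 2 bases and TTTC. Rsad2 is the antiviral enzyme viperin, at chr12:26456453-26456702 on the minus strand. Ifit1, an RNA-binding antiviral protein, is at chr19:34640639-34640888 on the plus strand. Btg2 is at chr1:134079156-134079405 and Ppp1r15a at chr7:45526269-45526518, both on the minus strand.
Rsad2: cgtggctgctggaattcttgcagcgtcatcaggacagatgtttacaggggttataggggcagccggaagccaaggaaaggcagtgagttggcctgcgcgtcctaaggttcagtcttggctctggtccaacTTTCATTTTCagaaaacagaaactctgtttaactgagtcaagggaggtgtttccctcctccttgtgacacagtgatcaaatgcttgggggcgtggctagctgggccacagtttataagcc
Ifit1: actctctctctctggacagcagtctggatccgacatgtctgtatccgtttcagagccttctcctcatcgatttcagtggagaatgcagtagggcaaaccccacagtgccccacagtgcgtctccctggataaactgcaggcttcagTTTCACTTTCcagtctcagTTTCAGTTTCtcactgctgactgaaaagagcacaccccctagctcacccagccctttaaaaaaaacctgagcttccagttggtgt
Btg2: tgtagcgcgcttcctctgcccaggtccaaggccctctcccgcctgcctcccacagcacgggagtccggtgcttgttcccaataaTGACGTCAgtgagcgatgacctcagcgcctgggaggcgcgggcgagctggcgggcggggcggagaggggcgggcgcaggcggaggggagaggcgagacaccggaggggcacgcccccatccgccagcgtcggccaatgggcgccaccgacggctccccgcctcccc
Ppp1r15a: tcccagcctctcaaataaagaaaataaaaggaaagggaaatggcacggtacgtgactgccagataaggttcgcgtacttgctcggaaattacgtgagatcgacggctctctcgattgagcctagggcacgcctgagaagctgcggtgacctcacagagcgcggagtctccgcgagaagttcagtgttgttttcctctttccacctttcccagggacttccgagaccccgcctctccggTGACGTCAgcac

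The match of Rsad2 begins 120 bases before the start, those of Ifit1 104 and 85 bases before it, that of Btg2 166 bases before it and that of Ppp1r15a 12 bases before it. Over windows from 250 bases before to 50 bases after the start, both strands, 5423 of the 8463 genes had a single window and were searched, 95 late higher and 103 late lower genes with a 2-fold gap among them. The interferon response core was in 14 of 95 late higher windows (14.7%), 2 of 103 late lower windows (1.94%) and 3.6% of all windows. By course it was in 10 of 82 late-high windows (12.2%), 2 of 16 transient windows (12.5%) and 0 of 76 late-low windows. TGACGTCA was in 3.16% of late higher and 4.85% of late lower windows. By course it was in 3 of 82 late-high windows (3.66%), 3 of 16 windows of the transient course (18.8%), 1 of 76 of the late-low course (1.32%) and 3.65% of all windows. A loose NF-kappaB core, GGGA, any 4 bases and CC, was in 27.4% of late higher, 25.2% of late lower and 25.7% of all windows, so it hardly differed. TGANTCA, the AP-1 element, was in 11.6%, 8.74% and 4.96%, TATAAA in 11.6%, 12.6% and 7.08%, and the CArG box, the element that serum response factor binds, in 1.05%, 1.94% and 1.31%. The median ratio of observed to expected CpG was 0.603 in late higher windows, 0.767 in late lower windows and 0.8 in all. These shares describe the letters only and were not tested.

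The immediate early transcription factors, which couple kinase signals to transcription within minutes, were mostly late lower. Of 23 tested, 17 were late lower against 30.7% of all genes, 11 of them by 2-fold against 2.09%, and 2 were late higher. Egr1 passed the limma test. Rescaled values left 7 past 2-fold against 1.78% of all genes. Atf3, Egr2, Ier3 and Ier5 then dropped to gaps of -0.84, -0.99, -0.98 and -0.92. Without the 60 min library 17 were past 2-fold, where 727 of 8390 genes were late lower by 2-fold. The median late minus early difference of the list was -1.52. Egr3, a relative of Egr1, had 10.1 and 4.54 RPKM early and 1.02 and 0.0911 RPKM late, and Ier2 had 19.3 and 11 RPKM early and 4.02 and 1.05 RPKM late. Nr4a1, an orphan nuclear receptor, had 5.03 and 2.8 RPKM early and 0.837 and 0.0417 RPKM late. Its relative Nr4a3 went the other way, with 0.0406 and 0.415 RPKM early and 1.92 and 1.72 RPKM late, so 2 receptors of 1 family lay on opposite sides. Jun, the partner of Fos, had 40.3 and 19.9 RPKM early, 2.84 RPKM at 60 min and 8.03 RPKM at 120 min.

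Kinase phosphatases and RNA decay factors followed a mixed course. Of 10 MAP kinase phosphatases and Sprouty proteins, 3 were late lower, a share near the 30.7% of all genes, and none by 2-fold. Rescaled, 1 was late lower (25.1% of all genes) and past 2-fold (1.78%), which was Dusp6, while Dusp1 and Dusp8 overlapped. Dusp1, the phosphatase of p38, had 131 and 200.3 RPKM early, 106 RPKM at 60 min and 15 RPKM at 120 min. Of 9 AU-rich RNA binders and decay factors, 5 were late lower against 30.7% of all genes, and 2 by 2-fold against 2.09%. Zfp36, the decay factor tristetraprolin, had 116 and 126 RPKM early and 56 and 36.3 RPKM late, with a gap of -1.05 that was -0.62 rescaled. Zfp36l1 had 9.58 and 5.52 RPKM early and 2.06 and 0.216 RPKM late.

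NF-kappaB subunits and their inhibitors included members of both sides. Of 18 tested, 6 were late higher against 19% of all genes, and 4 late lower, a share under the 30.7% of all genes. By 2-fold, 1 was late higher, against 1.82%. Nfkb1, the subunit p105 and p50, had 8.11 and 15.4 RPKM early and 46.3 and 38.4 RPKM late. Nfkb2 had 11.3 and 27.2 RPKM early and 34.1 and 39.7 RPKM late. The inhibitors Nfkbid and Nfkbiz were late lower, Nfkbid from 33.4 and 40.2 RPKM to 17.9 and 5.33 RPKM, and Nfkbiz from 145 and 184 RPKM to 84.6 and 49.1 RPKM. Nfkbia, the inhibitor that is remade after each wave, had 322 and 339 RPKM early and 249.9 and 227 RPKM late, which overlapped once rescaled.

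Of 20 inflammatory cytokines, 1 was late lower against 30.7% of all genes and 10 were late higher against 19%. By 2-fold, 5 were late higher against 1.82%. Beside Il27 and Il12b these were Tnfsf15, a cytokine that costimulates T cells, with 0.305 and 0.435 RPKM early and 4.71 and 28.8 RPKM late, and Il15, which supports natural killer cells, with 8.53 and 8.73 RPKM early and 29.1 and 83.2 RPKM late. Il6 had 0.246 and 2.25 RPKM early, 7.72 RPKM at 60 min and 82.1 RPKM at 120 min. Without the 30 min library 11 cytokines passed 2-fold, and without the 60 min library 10. Over all genes, 358 of 8431 and 895 of 8390 were late higher by 2-fold in these settings. Counts of a list without a library, or rescaled, were chosen after seeing the data. Osm, oncostatin M, was the late lower member, with 3.83 and 5.78 RPKM early and 1.74 and 1.01 RPKM late. Tnf overlapped between the sides, with 414 and 1158 RPKM early and 572 and 552 RPKM late.

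Chemokines, which draw leukocytes to a site, were late higher in 10 of 18 cases against 19% of all genes. Late lower were 2 against 30.7%, and 3 were late higher by 2-fold against 1.82%. The 2-fold count was 9 without the 30 min and 8 without the 60 min library, against 358 of 8431 and 895 of 8390 genes. Ccl22 had 0.0106 and 0.21 RPKM early and 2.11 and 7.9 RPKM late, where the 15 min value is the worth of no or 1 read. Cxcl11, a ligand of Cxcr3, had 0.0241 and 0.688 RPKM early and 2.14 and 22 RPKM late. Cxcl10, another ligand of Cxcr3, had 20.2 and 212 RPKM early and 289 and 1281 RPKM late, a gap of 0.45. Cxcl2, which draws neutrophils, had 154 and 443 RPKM early and 146 and 73.9 RPKM late, a gap of -0.08 that closed when rescaled.

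Of 24 interferon receptors, Jaks, Stats and Irfs, 12 were late higher against 19% of all genes and 2 late lower against 30.7%. By 2-fold, 4 were late higher against 1.82%, and Jak2 and Stat5a passed the limma test. Without the 60 min library 12 passed 2-fold, where 895 of 8390 genes were late higher by 2-fold. Socs1, the inhibitor of Jak kinases, had 0.0314 and 0.0973 RPKM early, 0.74 RPKM at 60 min and 8.78 RPKM at 120 min. Usp18, an inhibitor of the type I interferon receptor, had 3.28 and 2.06 RPKM early and 7.13 and 48.5 RPKM late. Irf3, the factor that starts interferon beta transcription, was late lower, with 5.82 and 7.3 RPKM early and 3.39 and 2.55 RPKM late.

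Antiviral interferon-stimulated genes were late higher in 32 of 34 cases against 19% of all genes, with none late lower (33 higher rescaled, against 27.7%). Of these, 13 had a 2-fold gap against 1.82% of all genes, and none passed the limma test. Their median late minus early difference was 2.08, and 12 of the 13 stood 2-fold or more higher at 120 min than at 60 min. Rsad2 had 14.5 and 51.9 RPKM early, 217 RPKM at 60 min and 1518 RPKM at 120 min, a gap of 4.18-fold (4.08 to 4.28). Mx1 had 8.03 and 6.58 RPKM early and 29.5 and 616 RPKM late, and Mx2 had 5.15 and 6.58 RPKM early and 28.1 and 137 RPKM late. Ifit1 had 3.25 and 11.8 RPKM early and 40.5 and 263 RPKM late. Oasl1 had 1.12 and 7.16 RPKM early and 30.2 and 69.6 RPKM late. Ifih1, the RNA sensor MDA5, was the member with little difference within the late side, with 5.98 and 33.6 RPKM early and 109.6 and 125 RPKM late. Without the 60 min library, which leaves 120 min alone on the late side, all 34 were late higher by 2-fold. Over all genes, 895 of 8390 were late higher by 2-fold in that setting.

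Related defence families also lay mostly on the late higher side. Of 13 guanylate-binding and immunity-related GTPases, which attack the vacuoles of microbes, 12 were late higher against 19% of all genes and none late lower. By 2-fold, 4 were late higher against 1.82%. The 2-fold count was 7 rescaled, against 2.66%, and 13 without the 60 min library, against 895 of 8390 genes. Gbp2 had 3.04 and 9.48 RPKM early and 19.8 and 178 RPKM late, and Ifi47 had 3.61 and 3.37 RPKM early and 8.85 and 80.2 RPKM late. Of 12 Schlafen and p200 genes, 9 were late higher against 19% of all genes, and 1 by 2-fold. That gene was Ifi205, with 0.545 and 3.76 RPKM early and 10.1 and 80.2 RPKM late. Genes of these families resemble each other, so the counting of shared reads makes their single values uncertain.

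Effector genes of later macrophage function were also found on the late higher side. Nos2, the inducible nitric oxide synthase, had 0.0383 and 0.0951 RPKM early, 2.96 RPKM at 60 min and 83 RPKM at 120 min, a gap of 31.1-fold with a wide counting interval of 19 to 54.8. Slc7a2, which imports the arginine that Nos2 uses, had 0.0347 and 0.0492 RPKM early and 1.82 and 4.87 RPKM late. Of 15 enzymes of itaconate, nitric oxide and prostaglandin synthesis, 7 were late higher (2 by 2-fold) and 2 late lower. Over all genes, 19% were late higher, 1.82% by 2-fold, and 30.7% late lower. Irg1, which makes itaconate, had a gap of 0.67. Of 19 antigen presentation genes, 10 were late higher and 1 late lower, and the 3 past 2-fold were the proteasome genes Psme1, Psmb10 and Psme2. Of 13 costimulatory and activation genes, 9 were late higher, and Fas, the death receptor, was the one past 2-fold, with 2.28 and 4.96 RPKM early and 12.6 and 22.7 RPKM late.

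Receptors and lineage genes lay on both sides. Of 25 chemokine and other G protein-coupled receptors, 11 were late lower against 30.7% of all genes, 3 of them by 2-fold against 2.09%. Rescaled, 8 were late lower against 25.1% of all genes. Late higher were 5, a share near the 19% of all genes, 1 of them by 2-fold against 1.82%. Lpar6, a lysophosphatidic acid receptor, had 7.72 and 3.98 RPKM early and 0.81 and 0.69 RPKM late. Cxcr4, the receptor that holds cells in the marrow, had 12.4 and 9.36 RPKM early and 3.06 and 0.242 RPKM late, and Ccr2, the monocyte chemokine receptor, had 11.8 and 7.1 RPKM early and 2.59 and 2.43 RPKM late. Adora2a, the adenosine receptor that damps inflammation, was the one late higher by 2-fold, with 0.00754 and 0.0749 RPKM early and 1.38 and 5.76 RPKM late. The 15 min value of Adora2a is the worth of no or 1 read. Of 27 lineage factors and identity genes, 8 were late higher and 8 late lower, against 19% and 30.7% of all genes, so the late lower share was near that of all genes. Rescaled, 8 were late higher, a share near the 27.7% of all genes, and 4 late lower, a share under the 25.1% of all genes. Lyl1 had 8.86 and 4.48 RPKM early and 1.14 and 0.143 RPKM late, Mef2c had 8 and 6.65 RPKM early and 2.04 and 1.47 RPKM late, and Cebpd had 1.51 and 1.13 RPKM early and 4.69 and 10.1 RPKM late. Of 28 Toll-like receptor pathway genes, 10 were late higher against 19% of all genes and 6 late lower against 30.7%, none by 2-fold.

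Metabolic and growth lists held single genes past 2-fold, and the lists of basic cell functions held none. Over all genes, 19% were late higher, 1.82% by 2-fold, and 30.7% late lower, 2.09% by 2-fold. Of 14 growth and nutrient response genes, 5 were late lower, a share near the 30.7% of all genes, and none late higher. Foxo3 and Sesn1, which act when growth signals are low, were past 2-fold, with Sesn1 dropping to a gap of -0.98 when rescaled. Foxo3 had 4.16 and 3.24 RPKM early and 0.979 and 0.304 RPKM late. Of 16 glycolysis genes, 9 were late higher, and Pfkfb3, which drives glycolysis, had 2.91 and 3.05 RPKM early and 7.33 and 18.6 RPKM late, while its relative Pfkfb4 had 4.53 and 3.28 RPKM early and 1.25 and 1.15 RPKM late. Of 20 cholesterol genes, 9 were late lower and 2 late higher. Insig1, which holds back cholesterol synthesis, had 22.9 and 22.5 RPKM early and 7.34 and 5.78 RPKM late, and Ch25h, which makes the antiviral sterol 25-hydroxycholesterol, had 0.495 and 2 RPKM early and 4.63 and 12 RPKM late. Of 20 mitotic genes, 13 were late lower (9 rescaled, against 25.1% of all genes), none was late higher and none passed 2-fold. Respiratory chain genes were late higher in 9 of 23 cases and ribosomal protein genes in 10 of 18. Splicing factors were late higher in 5 of 24 cases, near the share of all genes, and late lower in 5, under it. Of 10 nuclear noncoding RNAs and snoRNA hosts 3 were late lower and 1 late higher, of 17 elongation and chromatin genes 4 were late lower and 5 late higher, and of 16 housekeeping genes 5 were late lower and 3 late higher. Set against 30.7% and 19% of all genes, the late lower shares of these 3 lists were at or under the background or close to it. None of the genes in these last lists passed 2-fold.

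**Figure D3:**
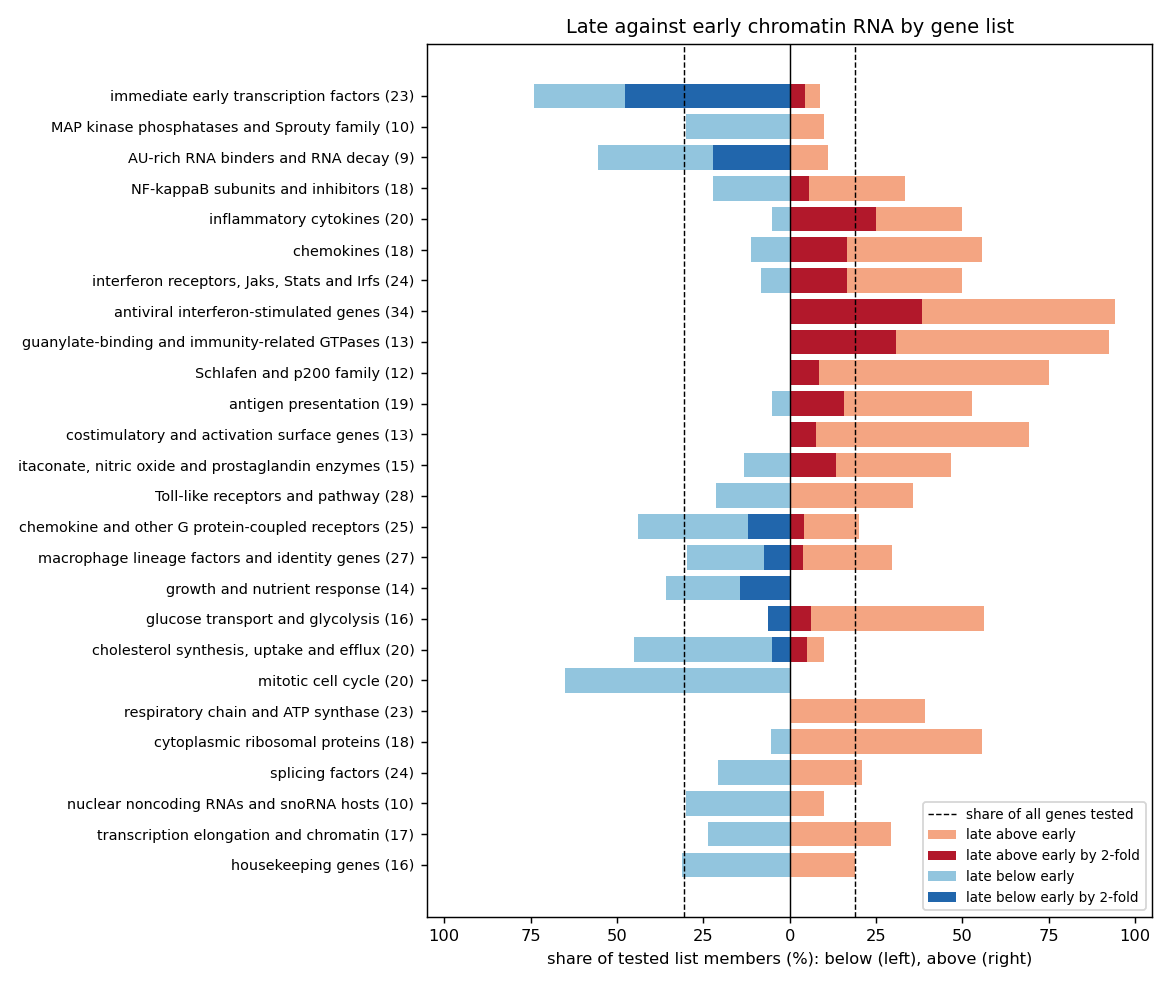
Share of the tested members of each gene list (number tested in parentheses) whose late chromatin values all lie above (right) or below (left) the early ones, with the darker part past 2-fold; dashed lines mark the shares of all 8463 genes, 19% and 30.7%. The antiviral and GTPase lists reach furthest to the right and the immediate early factors furthest to the left.

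The nucleoplasmic and cytoplasmic libraries of the same times were not used to choose these genes. Of the 154 late higher genes, 133 were late higher in nucleoplasmic RNA (86.4% against 16.3% of all genes) and 140 in cytoplasmic RNA (90.9% against 15.9%). By 2-fold these counts were 54 (1.73% of all genes) and 57 (1.99%), and none was late lower in either fraction. Of the 177 late lower genes, 132 were late lower in nucleoplasmic RNA (74.6% against 36.5%) but 43 in cytoplasmic RNA (24.3% against 10.5%). By 2-fold these counts were 11 (0.484% of all genes) and 5 (0.213%). The difference between fractions was tested per gene by the limma interaction with the fractions as separate groups, which called no gene against nucleoplasmic or cytoplasmic RNA, with 46 and 120 genes at an unadjusted p under 0.05. That fit counts the spread between times within each fraction as error. The fractions share their times, and with time as a block, an alternative chosen after seeing the data, limma called 32 genes against nucleoplasmic RNA (0.378%) and 19 against cytoplasmic RNA (0.225%). Rescaled, the blocked fit called 24 (0.284%) and 0. Of the calls as deposited, 30 of 32 and 18 of 19 had the lower late minus early difference in chromatin RNA. Among the late lower genes past 2-fold, 3 of 177 were called against either fraction, and among the late higher genes 2 and 1 of 154. The blocked fit has 4 differences a gene and draws most of its spread from the other genes.

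The median courses show where the fractions parted. The 132 late-low genes had medians of 1.5 and 0.889 RPKM in chromatin RNA at 60 and 120 min, 4.91 and 1.44 RPKM in nucleoplasmic RNA, and 7.51 and 1.31 RPKM in cytoplasmic RNA. The cytoplasmic medians at 15 and 30 min were 7.52 and 7.05 RPKM. The cytoplasmic library of 60 min was shifted as a whole, with a median log2 ratio to 0 min of 0.440 against 0.041 and 0.157 early. The median of all tested genes there was 7.21 RPKM, against 5.14 and 5.78 RPKM early. For all tested genes the medians at 60 min were 2.45 RPKM in chromatin RNA and 5.77 RPKM in nucleoplasmic RNA. The order of the fractions at that time was that of all genes, with a wider distance in the late-low genes. At 0 min the late-low medians were 6.41 RPKM in chromatin and 6.19 RPKM in cytoplasmic RNA, against 3.47 and 5.04 RPKM for all tested genes. Late-low genes were chosen by low late chromatin values, and the size of the distance was not tested. The 25 transient genes had a chromatin median that was highest at 15 min and nucleoplasmic and cytoplasmic medians that were highest at 30 min, at 45.5 and 59.8 RPKM. Ifrd1 had 4.17 and 51.3 RPKM in early and 74.3 and 11.3 RPKM in late cytoplasmic RNA, so its 60 min value was above both early ones there. Its interaction against cytoplasmic RNA was -4.40 (limma adjusted p = 1 without the block, 1.06e-07 with time as a block and 0.185 with the block and rescaled values). Fabp4 had 8.09 and 20.8 RPKM in early and 52.1 and 15.8 RPKM in late cytoplasmic RNA, and an interaction of -3.46 (limma adjusted p = 1 without the block, 0.00585 with it and 0.185 with the block and rescaled values). Fli1 had 26.2 and 30.5 RPKM in early cytoplasmic RNA, 33.1 RPKM at 60 min and 5.91 RPKM at 120 min. Jak2 was late higher in every fraction. It had 5.04 and 4.35 RPKM in early and 16.1 and 75.9 RPKM in late nucleoplasmic RNA, and 4.29 and 4.96 RPKM in early and 19.3 and 54 RPKM in late cytoplasmic RNA.

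**Figure D4:**
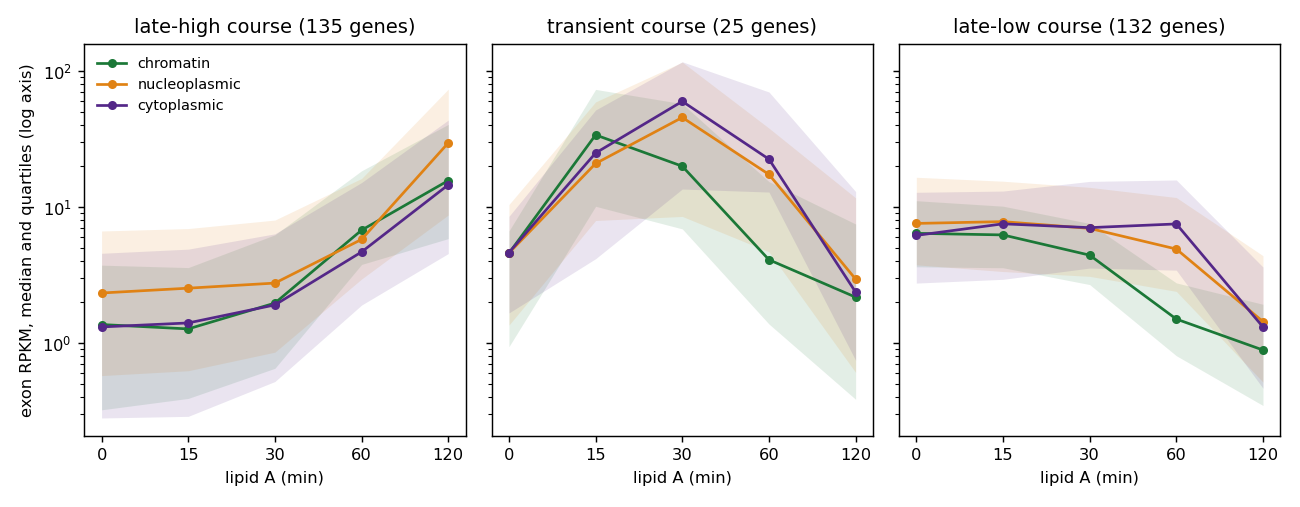
Median exon RPKM (log axis; shaded, the quartiles over genes) in chromatin, nucleoplasmic and cytoplasmic RNA at 0 to 120 min for the genes of the late-high (135), transient (25) and late-low (132) courses, 1 library per point. In the transient and late-low courses the chromatin median at 60 min lies below the nucleoplasmic and cytoplasmic ones, as does that of all tested genes.

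The authors' deposited table of 560 induced genes gives chromatin values over the whole gene, introns included as far as the counted lengths show (68.6% of 545 genes lay within 5% of the reference span). These values come from the same libraries and are no replicate. In it, 86 genes (15.4%) were late higher by 2-fold and 25 (4.46%) late lower. Exon values tested here existed for 477 of them. Of 95 genes late higher by 2-fold in exons, 57 were so over the whole gene, and 88 did not overlap in the same direction. The 57 made up 79.2% of the 72 whole-gene genes. All 19 genes late lower by 2-fold in exons were so over the whole gene, 79.2% of 24 there. No gene had 2-fold gaps in opposite directions.

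The exon difference was the larger one for 386 of the 477 genes (80.9%), with medians of 1.35 in exons and 1.03 over the whole gene. Both were taken on log2(RPKM + 0.5). Whole-gene values were the lower ones, with a median of 1.4 RPKM against 2.42 RPKM in exons at 15 min. The added 0.5 RPKM therefore narrows whole-gene differences and gaps more, which bears on the medians and 2-fold counts of the classes below. How much of the contrast this makes up was not tested. By the classes of the authors' deposited table, the medians differed most in B, A2, D and C. In class B, all 46 genes had a larger late minus early difference in exons, with medians of 1.21 and 0.54, and 11 passed 2-fold in exons against none over the whole gene. In class D 80 of 84 genes did so, with medians of 1.73 and 1.27. Past 2-fold in exons and over the whole gene were 35 and 15 genes in class D, 44 and 45 in class E and 4 and 12 in class F, so class F went the other way. At 30, 60 and 120 min the class B medians were 3.75, 5.5 and 1.6 RPKM over the whole gene, and 4.98, 12 and 4.25 RPKM in exons. The classes were drawn by the authors from the same libraries and are no independent evidence of timing.

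Hivep2 shows the pattern in a single gene. Its exon values were 1.25 and 1.42 RPKM at 15 and 30 min, while over the whole gene it had 0.765 and 3.57 RPKM, so the 30 min library was already the higher one there. At 60 and 120 min the exon values were 10.6 and 13.9 RPKM and the whole-gene values 7.94 and 4.34 RPKM. Zhx2, a transcriptional repressor of class B, had 0.45 RPKM in exons and 2.07 RPKM over the whole gene at 30 min, and 2.96 and 0.822 RPKM at 120 min. Malt1, a protease of NF-kappaB signalling, had 64.9 and 75.7 RPKM in late exons and 28.3 and 27.8 RPKM over the whole gene. In Hivep2, Il12b, Zhx2, Slc39a14 and Gpr126 the whole-gene value at 120 min lay below that at 60 min, while the exon value was the higher one at 120 min in all but Zhx2.

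**Figure D5:**
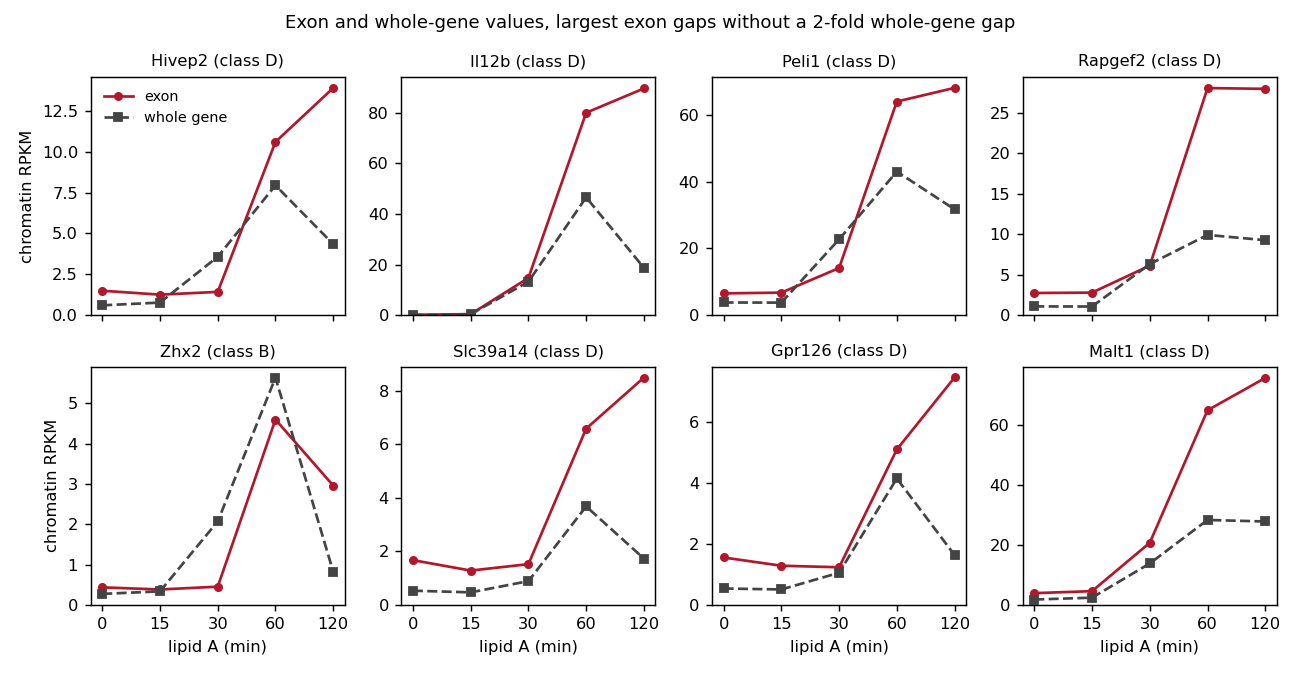
Chromatin RPKM in exons (red) and over the whole gene (grey) at 0 to 120 min for the 8 genes with the largest exon gap upwards among those without a 2-fold whole-gene gap, 1 library per point, with the authors' class in the title. Whole-gene values peak at 60 min in all 8 panels, while exon values are highest at 120 min in 6 of them.

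The classes differed in the direction of the gap. Over the whole gene, 15 of 16 class A1 genes and 10 of 58 class A2 genes were late lower by 2-fold, against 4.46% of all 560. No gene of classes B to F was. Late higher genes past 2-fold were 56 of 116 in class E, 16 of 97 in class D and 14 of 119 in class F. Set against 15.4% of all 560 genes, class E (48.3%) lay above that share. Class D (16.5%) lay near it and class F (11.8%) under it. The authors' promoter type LCG covered 49 of the 86 late higher genes (57%) against 44.6% of all 560, and the type CpG 21 of the 25 late lower genes (84%) against 55.4%. The median counted length was 11516 bases for late higher genes, 4321 bases for late lower genes and 16810 bases for all 560. The authors' deposited table of exon values sorts the genes into groups by these same values. There, group 2 held 53 late higher genes past 2-fold among 118 tested and group 3 held 80 among 554, against 1.82% of all genes. Group 5 held 82 of the late lower genes among 374, group 4 held 22 among 827 and group 6 held 34 among 1149, against 2.09%.

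Some of these genes are neighbours. By the order of genes in a RefSeq table of GRCm38, 26 of 153 late higher genes with a position (17%) stood next to another one, in 13 runs, against 3.51% of all tested genes next to a late higher one. Of 176 late lower genes 14 (7.95%) did so, in 6 runs, against 4.09% of all tested genes next to a late lower one. One run is Nup62-il4i1 with Il4i1, which share reads, and the shares were not tested. The runs of late higher genes included Rsad2 with Cmpk2 on chromosome 12, Parp14 with Dtx3l on chromosome 16, Oasl1 with Oasl2 on chromosome 5 and Ccl22 with Cx3cl1 on chromosome 8. Hivep2 and its neighbour Gpr126, an adhesion receptor, on chromosome 10 had 1.42 and 1.23 RPKM at 30 min and 10.6 and 5.09 RPKM at 60 min. Late lower runs of 3 genes were Cep57l1, Sesn1 and Foxo3 on chromosome 10 and Rcbtb2, Rb1 and Lpar6 on chromosome 14. Rb1, the retinoblastoma protein gene, had 10.3 and 7.46 RPKM early and 2.99 and 1.95 RPKM late. Lpar6 lies inside Rb1, and how reads of overlapping genes were divided is not given in the sources used here.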

How the data were processed

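RPKM values were deposited by the authors for chromatin, nucleoplasmic and cytoplasmic RNA of 15 libraries, made from rRNA-depleted RNA with strand kept, per the labels. TopHat aligned the reads to mm9, per the submitters' processing notes; counting tool, annotation and use of strand were not given in the sources used here. Values of 10020 transcripts turned into whole reads (tolerance 0.02 reads), which gave depth and 95% exact intervals that cover counting error only; 3 reads in 1 kb are worth 0.0573 to 0.0774 RPKM. Late and early libraries were compared on log2(RPKM + 0.5) with limma 3.58.1 in R 4.3.3 (trended prior, Benjamini-Hochberg adjustment, threshold 0.05) over 8463 genes at 1 RPKM or more, and by the gap between sides. Named genes were the 12 with the largest gap in each direction at 5 RPKM or more, up to 4 per direction in each of 26 lists with all members past 2-fold, limma calls and anchor genes; genes of the exon and whole-gene comparison and the neighbours were chosen after their values were seen. The members and lists were chosen with earlier results of these data known. Pseudocounts, limits on low values, scaling, left-out libraries and time as a block across fractions were varied. Another 3 columns matched no sample and were not used. Python 3.11.15, pandas 2.3.3, NumPy 2.4.6, SciPy 1.17.1 and matplotlib 3.10.9 were used. Gene order and promoters came from RefSeq tables, which matched 8432 of the 8463 genes.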

Additional observations from a re-analysis of the deposited data

Results flagged for a closer look

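Glipr1, a secreted protein of the CAP family, was picked out because the sides did not overlap in opposite directions in 2 fractions. Its gap was -1.30 in chromatin RNA, with 306 and 307 RPKM early and 96.5 and 124 RPKM late. In nucleoplasmic RNA the gap was 0.06, with 375 and 463 RPKM early and 676 and 483 RPKM late. The limma interaction of Glipr1 with time as a block was -1.94 (limma adjusted p = 0.0293, and 0.0256 with rescaled values), while the fit without the block called no gene.

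Other named genes were picked out because their late minus early difference in chromatin RNA differed from that in another fraction in the limma fit with time as a block, on the log2 scale. Against nucleoplasmic RNA the differences were -3.40 for Ifrd1 (limma adjusted p = 2.96e-05), -2.51 for Fabp4 (0.00726), -2.34 for Il12b (0.0101), -2.03 for Irg1 (0.0117) and -1.70 for Cxcl3 (0.0489). Rescaled, Ifrd1 and Fabp4 remained called with limma adjusted p of 0.0058 and 0.0253, and Il12b, Irg1 and Cxcl3 did not. Against cytoplasmic RNA they were -4.40 for Ifrd1 (limma adjusted p = 1.06e-07), -3.46 for Fabp4 (0.00585), -2.96 for Irg1 (0.00585), -2.96 for Nfkbiz (0.0083) and -2.76 for Slc20a1 (0.00585). None of the latter was called with rescaled values, and none of all these genes was called without the block.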

How the results depend on the processing

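No paired analysis was possible for late against early chromatin RNA, because each time had 1 library and no late library pairs with an early one. The limma test called 8 genes as reported, 3 with a pseudocount of 1 RPKM, 4 with a prior without a trend, and 0 without a filter, with a filter of 5 RPKM, rescaled or with the spread pooled over 12 libraries. Leaving out 1 library gave 0 to 927 calls. Late lower genes past 2-fold numbered 348 with a pseudocount of 0.1 RPKM, 103 with 1 RPKM and 116 with a filter of 5 RPKM, and that filter left 965 late higher and 958 late lower genes at any gap. Leaving out 1 library gave 2097 to 3154 late higher genes, 2693 to 4228 late lower genes, 214 to 895 late higher genes past 2-fold and 246 to 778 late lower genes past 2-fold. With 3-fold against 0 min the late-high course held 85 genes and the late-low course 61. Over the whole gene, 58 of the induced genes with exon values were late lower. The interactions called 0 genes in every setting with the fractions as separate groups. With time as a replicate block across fractions they called 32 genes against nucleoplasmic RNA and 19 against cytoplasmic RNA, and with the block and rescaled values 24 and 0. Without the block there were 33 to 324 genes at an unadjusted p under 0.05 against nucleoplasmic RNA and 85 to 477 against cytoplasmic RNA. For the 180 named genes, 1140 of 1260 values kept their side of 2-fold, 14 dropped under it, 106 moved past it and 0 reversed. Leaving out a library can only widen a gap, and a pseudocount cannot reverse one. Only rescaling could therefore have reversed a gap, and only rescaling or the pseudocount of 1 RPKM could have narrowed one. The cause of these moves was not tested. With 1 library per time, depth limits genes near the floor of 3 reads, and culture and time cannot be told apart.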
